A study of Mus musculus with 53 samples.

Results

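The genes described here make, take up and export cholesterol. They are 33 of the 49568 genes with a value in mouse sciatic nerve (SCN), and they were listed by symbol for their known place in the pathway. By role, 20 are enzymes of synthesis, 5 are regulators that sense sterols, 3 act in uptake and transport within the cell, and 5 act in esterification or efflux. The last list holds the receptor Nr1h3, which turns on efflux genes.

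The study sequenced mRNA from the SCN of male C57BL/6J mice to compare models of prediabetes and type 2 diabetes with controls, and to ask what a return to the control diet does. The 53 samples fell into 8 groups. Control mice ate the standard diet (SD) and were sampled at 16 weeks of age (SD16wk, n = 5) or at 24 weeks (SD24wk, n = 8). Mice in the prediabetes model ate a high-fat diet (HFD) with 60% of its calories from fat from week 5 of age, and were sampled at the same ages (HFD16wk, n = 7, and HFD24wk, n = 7). Mice in the diabetes model ate the same HFD and at week 12 received the beta-cell toxin streptozotocin (STZ) at 75 mg/kg and then at 50 mg/kg (HFD-STZ16wk, n = 5, and HFD-STZ24wk, n = 8). In dietary reversal (DR), mice of both models were returned to the control diet at week 16 for 8 weeks and sampled at 24 weeks (HFD-DR24wk, n = 7, and HFD-STZ-DR24wk, n = 6). No group carried a transgene. The labels name separate samples but do not tie each to an animal, so p-values measure the spread between these samples, which may in part be technical.

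Cholesterol is built from acetyl-CoA through mevalonate, farnesyl diphosphate and squalene, and then by a series of changes to the sterol ring. The products of Srebf1 and Srebf2 turn on genes of synthesis when sterols in the membrane are low. The product of Scap escorts them, and the products of Insig1 and Insig2 hold them back. When sterols are abundant, the receptor from Nr1h3 turns on Abca1, Abcg1 and Apoe, which move cholesterol out of cells, while Soat1 esterifies it for storage. In peripheral nerve, myelin is rich in cholesterol, and Schwann cells make most of their own.

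The values are log2 expression values with no counts behind them in the files, so the depth of each sample cannot be read from them. All 33 genes passed the filter on low values (a mean of at least 10 on the linear scale) in every comparison. Per kilobase of exon, Apoe had the highest mean level over the 53 samples (log2 level per kb 14.76), and Hmgcs1, which makes HMG-CoA, was next (log2 level per kb 13.29). Among the enzymes, Sc5d (11.75), Msmo1 (11.29) and Idi1 (11.23) followed on the same scale. Soat1 (7.10) and Fdps (7.11) had the lowest log2 levels per kb. The SCN therefore held RNA for every step listed, with an apolipoprotein and the early enzyme Hmgcs1 at the top.

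The tissue label was checked against marker genes. The 8 markers of myelinating Schwann cells were the most abundant of the marker lists used here, led by Pmp22 (mean log2 value 20.61 in SD16wk). No marker on the lists for adipocytes, skeletal muscle, Schwann cells, macrophages, fibroblasts, perineurial cells, endothelial cells and red blood cells was at 0 in all 53 samples. Skeletal muscle markers varied widely between samples. Their summed linear level ran from 1303 to 1840050 in SD24wk, and 9 of the 53 samples had a mean centred log2 value above 3 on these 8 markers. Those 9 samples were SD16wk replicate 2, SD24wk replicates 3 and 5, HFD24wk replicate 1, HFD-DR24wk replicates 1, 4, 5 and 6, and HFD-STZ-DR24wk replicate 4. HFD-STZ24wk replicate 7 stood apart in another way, with the lowest median rank correlation with the other samples (0.993).

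Synthesis enzymes were highest in young control mice. Each gene was centred on its mean over the 53 samples and the enzymes were averaged within a sample. This mean log2 value was 0.38 ± 0.19 (SD, n = 5) in SD16wk, 0.17 ± 0.13 (SD, n = 7) in HFD16wk and 0.16 ± 0.15 (SD, n = 5) in HFD-STZ16wk. At 24 weeks it was -0.07 ± 0.18 (SD, n = 8) in SD24wk, -0.19 ± 0.08 (SD, n = 7) in HFD24wk and -0.10 ± 0.25 (SD, n = 8) in HFD-STZ24wk. After DR it was -0.18 ± 0.09 (SD, n = 7) in HFD-DR24wk and 0.01 ± 0.19 (SD, n = 6) in HFD-STZ-DR24wk. The 3 groups at 16 weeks thus held the 3 highest means. SD16wk had the highest group mean for 19 of the 20 enzymes, and HFD16wk had it for Lbr. The lowest group mean was in HFD24wk for 9 enzymes, in HFD-DR24wk for 6, in HFD-STZ24wk for 4 and in HFD-STZ-DR24wk for 1.

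The esterification and efflux genes were ordered differently. Their mean centred log2 value was highest in HFD24wk (0.13 ± 0.18, SD, n = 7) and HFD-STZ24wk (0.08 ± 0.11, SD, n = 8). It was lowest in HFD-STZ-DR24wk (-0.13 ± 0.12, SD, n = 6) and HFD-DR24wk (-0.08 ± 0.07, SD, n = 7). The remaining groups lay between, at -0.05 ± 0.09 (SD, n = 5) in SD16wk, 0.06 ± 0.13 (SD, n = 7) in HFD16wk, -0.06 ± 0.07 (SD, n = 5) in HFD-STZ16wk and -0.00 ± 0.13 (SD, n = 8) in SD24wk. The regulators ranged only from -0.07 ± 0.07 (SD, n = 7) in HFD24wk to 0.07 ± 0.08 (SD, n = 6) in HFD-STZ-DR24wk. The uptake and transport genes ranged from -0.08 ± 0.14 (SD, n = 8) in SD24wk to 0.14 ± 0.09 (SD, n = 5) in HFD-STZ16wk.

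**Figure D1:**
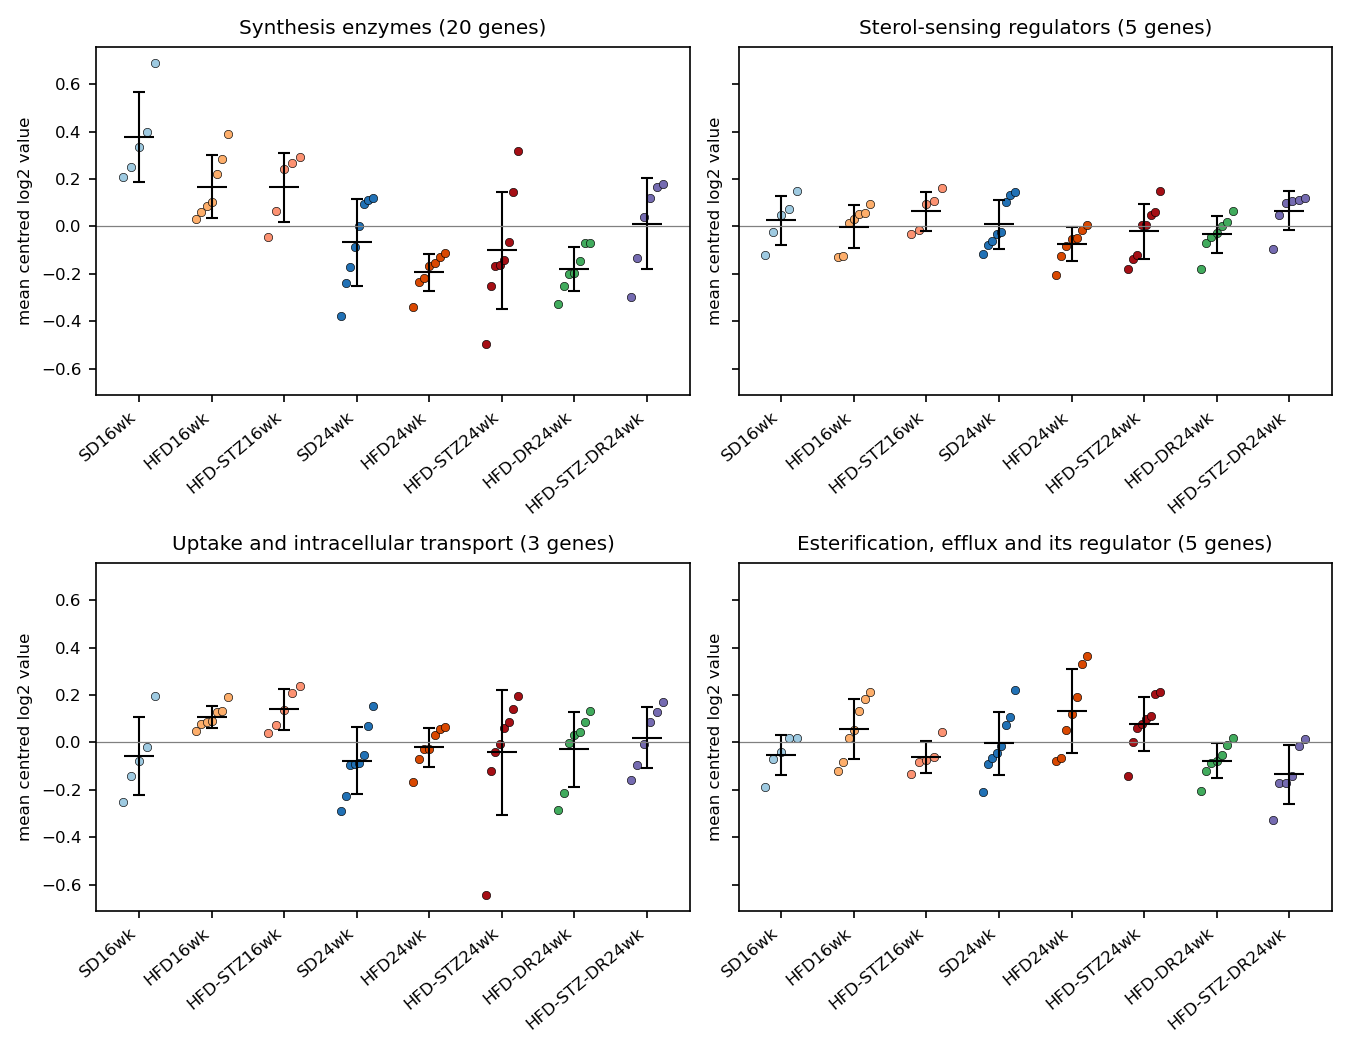
Mean centred log2 value of each role list in every sample, by group. Points are samples, and bars show the mean and SD of each group. The synthesis enzymes are highest in SD16wk (mean 0.38) and below 0 in every sample of HFD24wk and HFD-DR24wk, while the esterification and efflux genes are highest in HFD24wk (mean 0.13).

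Across the 8 groups, 14 of the 33 genes differed (limma F test, adjusted p under 0.05), against 1.97% of all genes tested. Of these 14, 13 were synthesis enzymes. In order of p they were Idi1, Sc5d, Cyp51, Lss, Hmgcs1, Hsd17b7, Sqle, Nsdhl, Msmo1, Dhcr7, Tm7sf2, Fdft1 and Mvd, with adjusted p from 1.73e-05 to 0.0265. The other was Stard4, a carrier of sterols through the cytosol (adjusted p = 0.00272). None of the 5 regulators and none of the 5 esterification and efflux genes passed by limma (0 each, with 2 of 5 at an unadjusted p under 0.05 in each list), and the regulator Srebf1 was nearest at an adjusted p of 0.0546. The enzymes Acat2 (0.0637), Ebp (0.0687), Fdps, Pmvk, Mvk, Lbr and Ggps1 also missed the threshold. With the myelinating Schwann cell marker score as a covariate 4 of the 33 passed, against 1.21% of all genes, and without the 9 samples rich in muscle markers 9 passed, against 1.04%.

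Of the 13 comparisons of 2 groups, only 1 had genes of the 33 past the threshold, and it was of age. In HFD-fed mice, 6 of the 33 genes fell from 16 to 24 weeks (limma, adjusted p under 0.05), against 0.0654% of all genes tested, or 12 genes in all. The enzymes were Lss, Mvd, Cyp51, Hmgcs1 and Sc5d, and the remaining gene was Stard4. All 20 enzymes had a lower mean at 24 weeks, with a median log2 difference of -0.39 against 0.02 over all genes tested, and 17 of them had an unadjusted p under 0.05 and a lower mean, against 3.22% of all genes.

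Lss closes the sterol ring system. Its log2 values ran from 11.50 through a median of 11.71 to 11.76 in HFD16wk and from 11.09 through 11.26 to 11.42 in HFD24wk. It fell by 0.41 ± 0.06 (log2, SE, adjusted p = 0.0220 by limma). Mvd makes isopentenyl diphosphate, and its values ran from 10.09 through 10.14 to 10.51 and from 9.43 through 9.73 to 9.88. It fell by 0.52 ± 0.09 (log2, SE, adjusted p = 0.0426 by limma). Cyp51 removes a methyl group from lanosterol, with values from 13.00 through 13.12 to 13.54 and from 12.52 through 12.69 to 12.84. It fell by 0.53 ± 0.09 (log2, SE, adjusted p = 0.0426 by limma). In these 3 genes every HFD24wk sample lay below every HFD16wk sample.

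Hmgcs1 had log2 values from 15.53 through a median of 15.72 to 15.83 in HFD16wk and from 15.22 through 15.28 to 15.49 in HFD24wk. It fell by 0.39 ± 0.07 (log2, SE, adjusted p = 0.0442 by limma). Sc5d, which sets a double bond near the end of the pathway, ran from 14.09 through 14.23 to 14.43 and from 13.76 through 13.84 to 13.98. It fell by 0.39 ± 0.07 (log2, SE, adjusted p = 0.0442 by limma). Stard4 ran from 10.21 through 10.32 to 10.51 and from 9.72 through 9.97 to 10.06. It fell by 0.40 ± 0.07 (log2, SE, adjusted p = 0.0464 by limma). The groups did not overlap in any of the 6 genes, for which the 2-sided exact permutation test gave its smallest possible p of 0.000583 (n = 7 and 7). The groups also did not overlap for Idi1, Fdft1, Sqle, Hsd17b7 and Dhcr7, which missed the adjusted threshold. These 11 of the 33 compare with 0.196% of all genes tested that were lower in every HFD24wk sample than in any HFD16wk sample.

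The count of 6 changed whichever single sample was left out. It was 0 without HFD24wk replicate 1, 3, 6 or 7 and 0 without HFD16wk replicate 3, 5, 6 or 7 (limma, 17 to 19 genes at an unadjusted p under 0.05). It was 1 without HFD24wk replicate 4 or HFD16wk replicate 2, 3 without HFD24wk replicate 5, 4 without HFD16wk replicate 1 or 4, and 8 without HFD24wk replicate 2. It was also 0 with a variance prior without trend, and 0 with the myelinating Schwann cell marker score as a covariate (limma, 15 genes at an unadjusted p under 0.05), where all 20 enzymes had a negative difference with a median of -0.28.

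**Figure D2:**
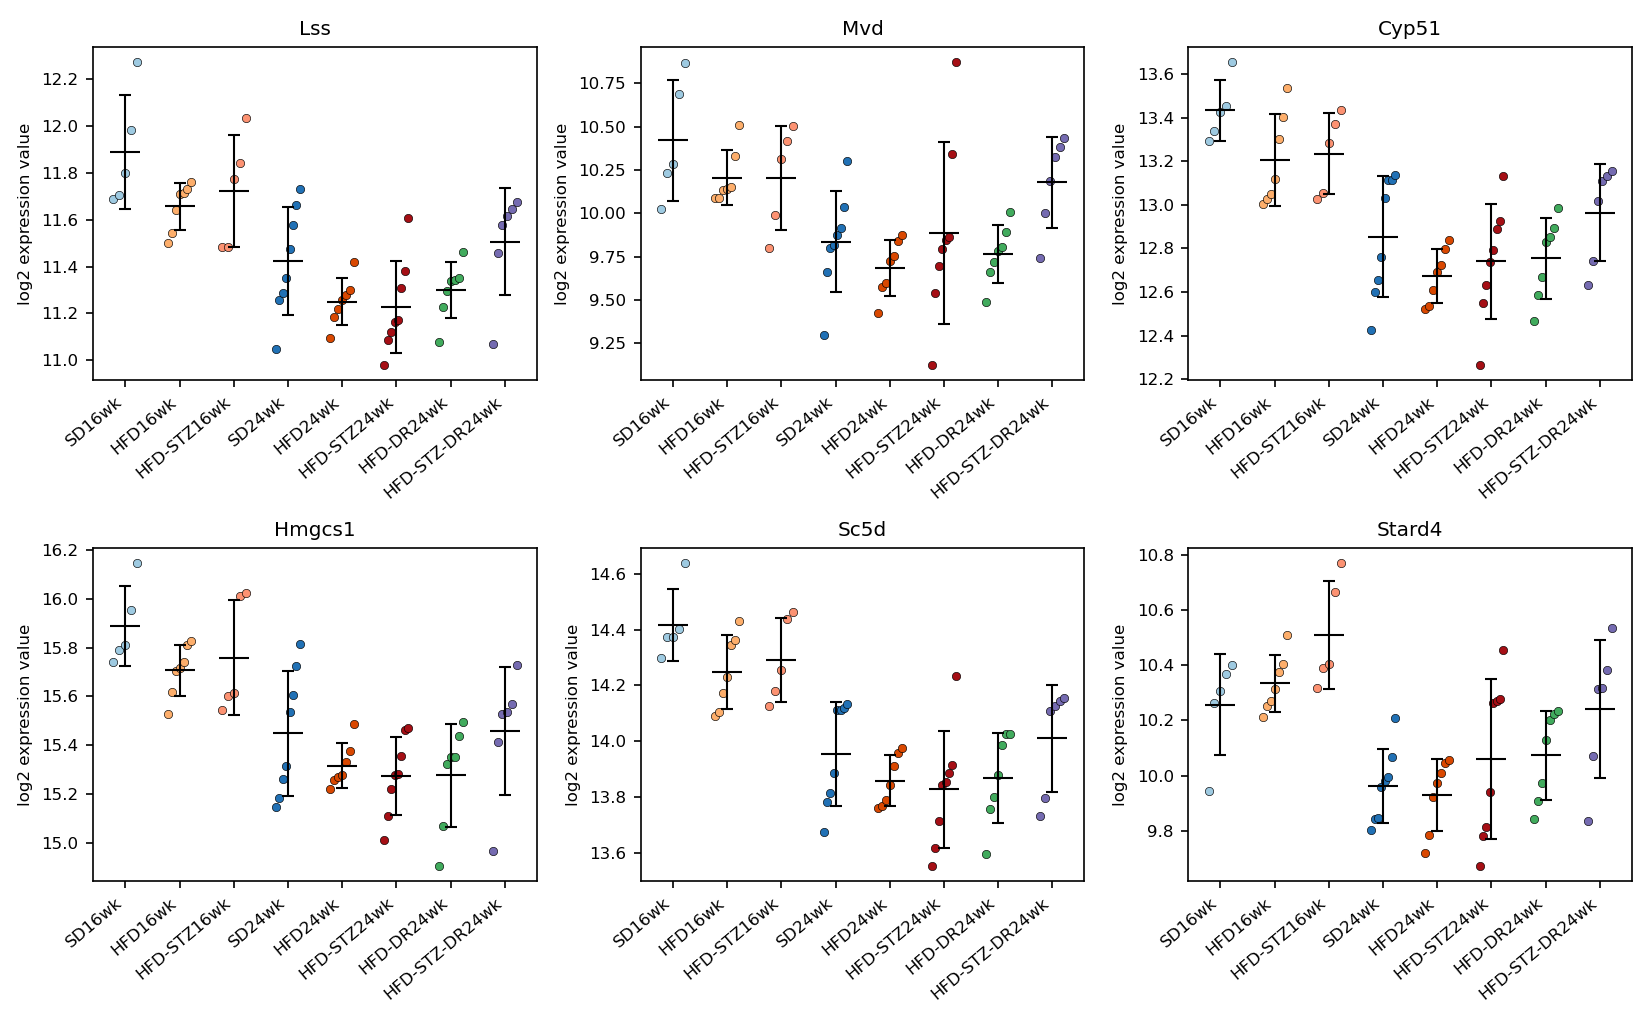
Log2 expression values of Lss, Mvd, Cyp51, Hmgcs1, Sc5d and Stard4 in every sample, by group. Points are samples, and bars show the mean and SD of each group. All 7 HFD24wk samples lie below all 7 HFD16wk samples in each panel.

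In SD-fed mice most enzymes also had lower means at 24 weeks, but none of the 33 genes passed. limma called 0 genes of all tested (0%), while 21 of the 33 had an unadjusted p under 0.05 against 10.5% of all genes. Among the enzymes, 19 of 20 had a lower mean at 24 weeks (median log2 difference -0.46, against 0.01 over all genes), and 18 of these had an unadjusted p under 0.05, against 5.04% of all genes. Sc5d was 14.37, 14.64, 14.37, 14.40 and 14.30 (log2) in the SD16wk samples and ran from 13.67 to 14.13 in SD24wk. The difference was -0.46 ± 0.10 (log2, SE, adjusted p = 0.223 by limma, exact permutation p = 0.000777, the smallest possible for 8 against 5). Dhcr7, the last enzyme of the pathway, ran from 11.18 through 11.22 to 11.48 in SD16wk and from 10.55 through 10.90 to 11.11 in SD24wk. The difference was -0.45 ± 0.09 (log2, SE, adjusted p = 0.223 by limma, exact permutation p = 0.000777). The groups did not overlap for these 2 genes or for Idi1, Cyp51, Tm7sf2, Msmo1 and Nsdhl, so 7 of the 33 were lower without overlap, against 0.349% of all genes tested. In 1 fit of all 8 groups, 9 of the 33 genes passed for this comparison, against 0.249% of all genes, and 11 passed with the runs of library numbers as covariates, against 0.675%. With the adipocyte or the myelinating Schwann cell marker score as a covariate, the median of the enzymes was -0.29 or -0.26.

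In HFD-STZ mice, limma again called 0 genes (0%), with 12 of the 33 at an unadjusted p under 0.05 against 12.5% of all genes. Of the enzymes, 17 of 20 had a lower mean at 24 weeks (median log2 difference -0.31, against 0.00 over all genes), and 8 of these had an unadjusted p under 0.05, against 6.69% of all genes. Hmgcs1 was 15.60, 16.01, 16.02, 15.55 and 15.61 (log2) in the HFD-STZ16wk samples and ran from 15.01 through a median of 15.28 to 15.47 in HFD-STZ24wk. It was the only 1 of the 33 that was lower without overlap, as were 0.601% of all genes tested. The difference was -0.49 ± 0.11 (log2, SE, adjusted p = 0.279 by limma, exact permutation p = 0.000777). Sc5d ran from 14.13 through 14.25 to 14.46 and from 13.55 through 13.85 to 14.23, so the groups overlapped. The difference was -0.47 ± 0.11 (log2, SE, adjusted p = 0.279 by limma, exact permutation p = 0.00311). The spread was wide at 24 weeks, where HFD-STZ24wk replicate 7 held the highest values of Acat2, Mvk and Mvd. Without it 19 of the 33 had an unadjusted p under 0.05 (0 called by limma), and 19 of 20 enzymes had a lower mean, with a median of -0.39. In 1 fit of all 8 groups 2 of the 33 genes passed, against 0.0719% of all genes, and 6 passed with the runs as covariates, against 0.166%. With the adipocyte score as a covariate the median of the enzymes was -0.03, with 13 of 20 lower, and with the myelinating Schwann cell score it was -0.11, with 16 of 20 lower.

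The 3 diets could be combined, in a comparison chosen after the separate ones had been seen. Time on the HFD and time since STZ rise with age in this average too. Averaged over SD, HFD and HFD-STZ mice, 15 of the 33 genes fell from 16 to 24 weeks and none rose (limma, adjusted p under 0.05), against 4.58% of all genes called in either direction and 3.29% called lower. Of the 20 enzymes 14 fell, and all 20 had a negative difference (median log2 difference -0.43, against 0.01 over all genes). Idi1, which isomerizes the isoprene units, fell most (by 0.57 ± 0.07, log2, SE, adjusted p = 4.04e-06 by limma). Sc5d had the smallest adjusted p (1.76e-06 by limma), and fell by 0.44 ± 0.05 (log2, SE). The falls that passed lay at early and late steps of the pathway, though not at every step. At its start were Hmgcs1 (by 0.44) and Mvd (by 0.47). At the step to squalene were Fdps (by 0.40), Fdft1 (by 0.42) and the squalene oxidase Sqle (by 0.47). Among the ring-modifying enzymes, each value being a fall on the log2 scale, were Lss (fell by 0.46), Cyp51 (fell by 0.54), Tm7sf2 (fell by 0.51), Msmo1 (fell by 0.48), Nsdhl (fell by 0.31), Hsd17b7 (fell by 0.43) and Dhcr7 (fell by 0.35).

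Of the enzymes that did not pass, Acat2 (-0.28 log2, adjusted p = 0.0727), Pmvk (-0.23) and Mvk (-0.17) had negative differences, while Ebp (-0.05), Ggps1 (-0.05) and Lbr (-0.04) lay near 0. Ggps1 feeds protein prenylation and not sterols, and Lbr is also a protein of the nuclear envelope. Outside synthesis, Stard4 fell by 0.38 ± 0.06 (log2, SE, adjusted p = 0.000105 by limma). The count of 15 lay between 15 and 19 when each of the 40 samples was left out in turn, and was highest without HFD-STZ24wk replicate 7. With each sample centred on its median 20 of the 33 genes passed, against 10.9% of all genes, and the share of all called genes that were lower moved from 71.9% (232 higher and 594 lower) to 88.5% (227 higher and 1742 lower).

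The esterification and efflux genes did not share the fall. None of the 5 passed over the 3 diets (0 by limma, 1 at an unadjusted p under 0.05), with a median log2 difference of 0.03 and 3 of 5 higher (2 of 5 with each sample centred on its median). In the separate diets their median log2 difference was 0.11 in SD, 0.06 in HFD and 0.12 in HFD-STZ mice, with 3, 3 and 4 of 5 higher at 24 weeks. Apoe had the smallest p of the 5 over the 3 diets (0.22 ± 0.07, log2, SE, adjusted p = 0.0748 by limma). The sterol exporter Abca1 had a difference of 0.27 ± 0.14 (log2, SE, adjusted p = 0.268 by limma). Among the regulators, Srebf1 (0.18) and Srebf2 (-0.16) had log2 differences of opposite sign, and Insig1 (-0.23, adjusted p = 0.0643 by limma) was nearest the threshold. Of the uptake genes, the receptor Lrp1 had a log2 difference of 0.14 and the lysosomal transporter Npc1 one of -0.09, neither past the threshold.

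**Figure D3:**
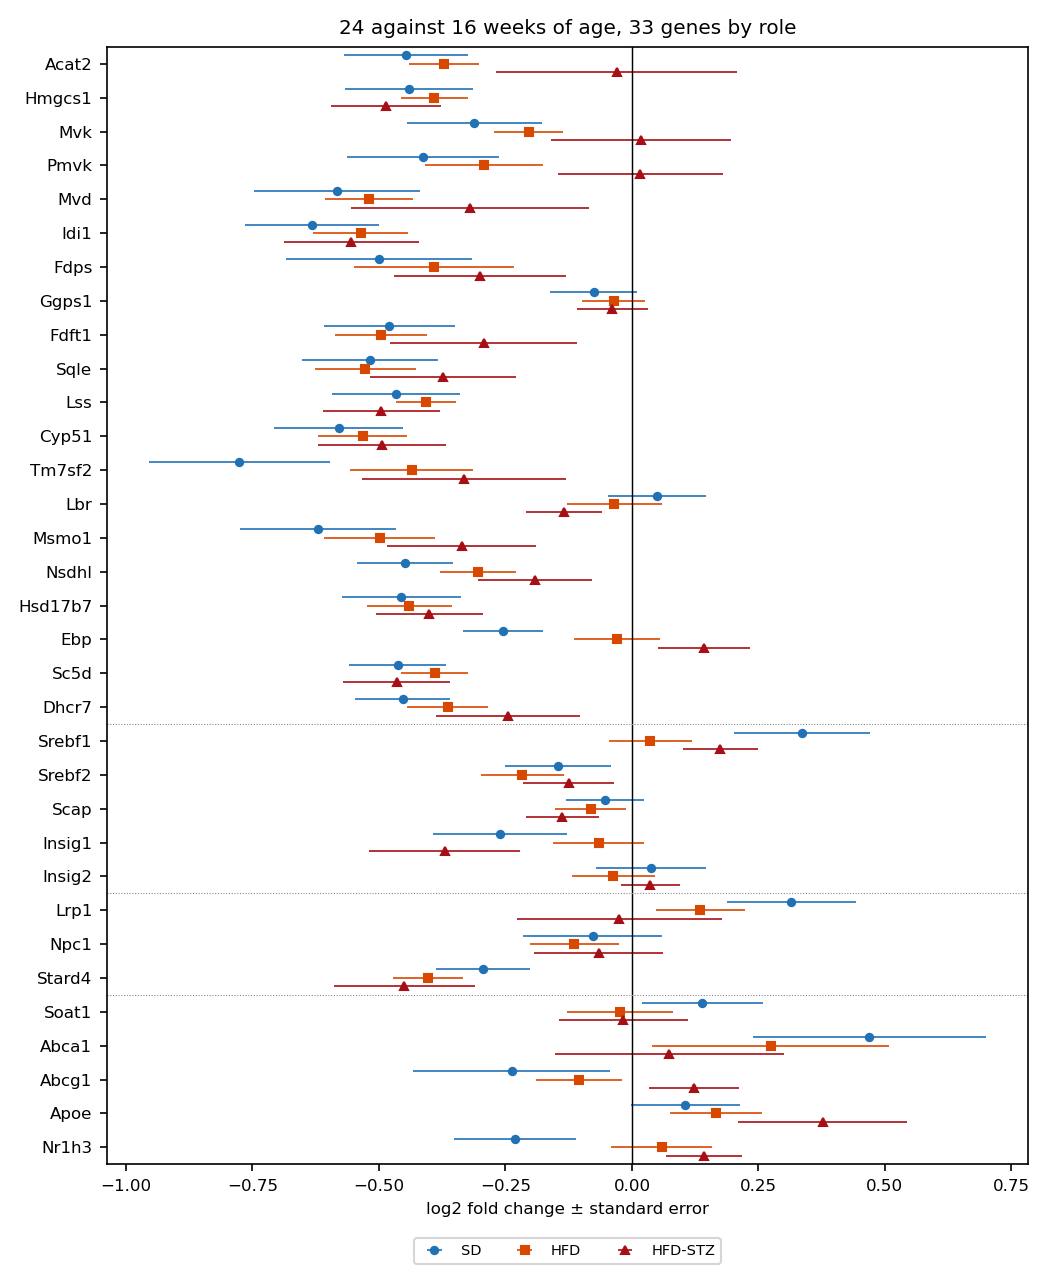
Log2 fold change from 16 to 24 weeks of age of each of the 33 genes in SD, HFD and HFD-STZ mice, with its standard error. Dotted lines part the synthesis enzymes, regulators, uptake genes, and esterification and efflux genes. Most enzymes lie left of 0 in all 3 diets, with medians of -0.46, -0.39 and -0.31, while the efflux genes lie on both sides of 0.

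Markers of other cells moved with age as well. All 8 markers of myelinating Schwann cells were lower at 24 weeks in each diet, with median log2 differences of -0.29 in SD, -0.21 in HFD and -0.30 in HFD-STZ mice, and 4 of the 8 fell over the 3 diets (limma, adjusted p under 0.05). Their summed linear level, led by Pmp22, had a median of 4545790 in SD16wk, 3897820 in HFD16wk and 4077380 in HFD-STZ16wk, and of 3552090, 3323030 and 3339680 in the same diets at 24 weeks. Adipocyte markers, led by Cfd, were higher for 8, 7 and 8 of 8 genes in SD, HFD and HFD-STZ mice (median log2 differences 1.81, 0.22 and 1.37), and 3 of the 8 rose over the 3 diets. The exception in HFD mice was Cfd itself, with a mean log2 value of 13.82 in HFD16wk and 13.26 in HFD24wk. The summed level of the 8 adipocyte markers had medians of 34416, 72788 and 51021 at 16 weeks and 76471, 84134 and 116882 at 24 weeks. Skeletal muscle markers, led by Acta1, were higher for 8 of 8 genes in each diet, and 0 passed by limma (3 at an unadjusted p under 0.05 over the 3 diets). Macrophage markers, led by Lyz2, were higher for 6, 6 and 5 of 6 genes (median log2 differences 0.42, 0.48 and 0.14), and red blood cell markers, led by Hbb-bs, for 3 of 3 genes in each diet (2.38, 0.35 and 0.93). In both lists 0 passed over the 3 diets by limma, with 3 genes at an unadjusted p under 0.05. With the myelinating Schwann cell marker score as a covariate, 5 of the 33 genes passed over the 3 diets, against 0.122% of all genes, 19 of 20 enzymes had a negative difference and their median was -0.20. With the adipocyte marker score 11 passed, against 0.538%. In bulk samples, fewer cells of a type and less RNA per cell cannot be told apart.

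Library numbers formed 8 runs, parted by steps of more than 5 between numbers (1 run skips a number), and both ages occurred within runs. In 15 of 15 pairs of a run and a diet with both ages, the mean of the synthesis enzymes was lower at 24 weeks (log2 differences from -0.77 to -0.02, median -0.43). The mean of the esterification and efflux genes was lower in 3 of the 15 (median 0.05). With the runs as covariates 18 of the 33 genes passed over the 3 diets, against 5.86% of all genes.

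Since the enzymes moved together with age, their promoters were searched for letters known from sterol control, in the 250 bases before to 50 bases after each start in RefSeq (GRCm38.p6). A window was found for 27 of the 33 genes, and Sqle, Fdps, Fdft1, Stard4, Npc1 and Abcg1 are named only. The sterol regulatory element was searched as TCACNCCAC and the NF-Y box as CCAAT, both on either strand.  The first was in 1.44% of the 27025 genes with a window, and among the 27 of the 33 with a window only in Hmgcs1. The box was in 41.1% of all genes, in 16 of 17 enzymes (all but Acat2), in 4 of 5 regulators, in 1 of 4 esterification and efflux genes (Soat1) and in 15 of 23 other cholesterol genes. The windows of the 5 enzymes that fell in HFD mice follow 5′ to 3′ on the gene's strand, with matches in capitals, where ATTGG is the box on the other strand. Hmgcs1 lies at chr13:119690101-119690400 (plus strand), Mvd at chr8:122443373-122443672 (minus), Lss at chr10:76531355-76531654 (plus), Cyp51 at chr5:4104648-4104947 (minus) and Sc5d at chr9:42264251-42264550 (minus). The last 4 were chosen after their values had been seen.
Hmgcs1: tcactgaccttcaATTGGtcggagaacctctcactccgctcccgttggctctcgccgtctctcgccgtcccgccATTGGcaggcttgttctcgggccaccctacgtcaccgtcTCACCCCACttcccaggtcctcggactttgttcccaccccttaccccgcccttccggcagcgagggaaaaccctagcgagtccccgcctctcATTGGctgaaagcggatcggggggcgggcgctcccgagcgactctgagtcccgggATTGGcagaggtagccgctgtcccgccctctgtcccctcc
Mvd: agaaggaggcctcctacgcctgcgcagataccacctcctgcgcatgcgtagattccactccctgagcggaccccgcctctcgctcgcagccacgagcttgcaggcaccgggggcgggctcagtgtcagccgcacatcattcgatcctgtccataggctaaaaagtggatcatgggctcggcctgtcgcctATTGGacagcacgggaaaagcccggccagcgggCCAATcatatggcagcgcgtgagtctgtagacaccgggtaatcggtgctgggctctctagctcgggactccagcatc
Lss: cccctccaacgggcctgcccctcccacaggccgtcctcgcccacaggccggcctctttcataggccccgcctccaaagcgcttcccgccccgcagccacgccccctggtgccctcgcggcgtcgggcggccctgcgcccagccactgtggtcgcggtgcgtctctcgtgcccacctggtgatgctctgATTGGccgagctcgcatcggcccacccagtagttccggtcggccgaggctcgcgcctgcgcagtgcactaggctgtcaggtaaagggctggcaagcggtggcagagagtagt
Cyp51: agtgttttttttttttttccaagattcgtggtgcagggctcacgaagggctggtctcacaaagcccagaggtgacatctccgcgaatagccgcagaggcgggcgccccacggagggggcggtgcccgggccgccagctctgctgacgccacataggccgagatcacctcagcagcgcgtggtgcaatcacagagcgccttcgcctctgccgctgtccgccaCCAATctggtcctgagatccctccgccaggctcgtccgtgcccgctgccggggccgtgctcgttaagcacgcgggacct
Sc5d: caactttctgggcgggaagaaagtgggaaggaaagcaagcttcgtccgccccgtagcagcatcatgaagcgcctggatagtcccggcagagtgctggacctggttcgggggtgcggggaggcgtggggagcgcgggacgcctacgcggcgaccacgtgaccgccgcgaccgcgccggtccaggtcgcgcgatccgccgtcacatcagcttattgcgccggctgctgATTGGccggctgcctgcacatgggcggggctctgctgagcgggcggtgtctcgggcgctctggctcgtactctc
The Hmgcs1 window holds the element at -137 from the start, and 4 boxes. Mvd holds 2 boxes, and Lss, Cyp51 and Sc5d hold 1 each, at -62, -29 and -24 from the start. A match describes letters only, not a bound site. The search used a fixed pattern near each start, so a missing match does not show that the element is absent.

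Between diets at 16 weeks none of the 33 genes passed. In HFD16wk against SD16wk, limma called 0 of the 33 genes, against 0.00557% of all genes, with 10 at an unadjusted p under 0.05 against 8.55%. Of the 20 enzymes 19 had a lower mean in HFD16wk (median log2 difference -0.23, against 0.01 over all genes), 8 of them at an unadjusted p under 0.05. Tm7sf2, which reduces the sterol ring, was 10.29 ± 0.40 (SD, n = 5) in SD16wk and 9.71 ± 0.29 (SD, n = 7) in HFD16wk, a log2 difference of -0.57 (adjusted p = 0.453 by limma, exact permutation p = 0.0152). Its values ran from 9.86 to 10.80 and from 9.44 to 10.25, so the groups overlapped. Ebp, which shifts a double bond, had a lowest value of 10.66 in SD16wk and ran from 10.45 to 10.61 in HFD16wk. It was the only 1 of the 33 that was lower without overlap, as were 0.245% of all genes tested. Its log2 difference was -0.23 (adjusted p = 0.430 by limma, exact permutation p = 0.00126, the smallest possible for 7 against 5). The esterification gene Soat1 had a log2 difference of 0.30 (exact permutation p = 0.0417) and Lrp1 one of 0.35 (exact permutation p = 0.0290), both opposite in sign to the enzymes, though Lrp1 was at 0.22 without SD16wk replicate 2. Of the esterification and efflux genes 3 of 5 had a higher mean (median 0.04), and of the uptake genes 3 of 3 (median 0.08). All 8 myelinating Schwann cell markers had a lower mean (median -0.16) and all 8 adipocyte markers a higher one (median 2.19), as had all 3 red blood cell markers (median 2.84). Without SD16wk replicate 2, 2 of the 33 genes had an unadjusted p under 0.05 (0 called by limma), and 18 of 20 enzymes had a lower mean, with a median of -0.13. With the adipocyte score as a covariate the median of the enzymes was -0.04, with 12 of 20 lower, and with the myelinating Schwann cell score it was -0.08, with 16 of 20 lower.

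HFD-STZ16wk against SD16wk shares the same control samples, and its values stand beside those of HFD16wk. limma called 0 of the 33 genes and 0% of all genes, with 9 at an unadjusted p under 0.05 against 8.41%. Again 19 of 20 enzymes had a lower mean than SD16wk (median log2 difference -0.20), 6 of them at an unadjusted p under 0.05. Ebp was 10.43 ± 0.05 (SD, n = 5) against 10.78 ± 0.14 (SD, n = 5), and Nr1h3 ran from 10.92 to 11.14 against 11.15 to 11.42. All 5 HFD-STZ16wk samples lay below all 5 SD16wk samples in both genes. Without overlap, 4 of the 33 were lower, against 1.36% of all genes tested. Their log2 differences were -0.35 (adjusted p = 0.376 by limma) and -0.28 (adjusted p = 0.521 by limma), each with an exact permutation p of 0.00794, the smallest possible for 5 against 5. All 3 uptake genes had a higher mean than in SD16wk, with a median of 0.25, as had all 3 red blood cell markers (median 1.23) and all 8 adipocyte markers (median 0.87). A lower mean was seen for 6 of 8 myelinating Schwann cell markers (median -0.15) and all 8 skeletal muscle markers (median -1.32). Without SD16wk replicate 2, 7 of the 33 genes had an unadjusted p under 0.05 (0 called by limma), and 19 of 20 enzymes had a lower mean, with a median of -0.12. With the adipocyte or the myelinating Schwann cell score as a covariate, the median of the enzymes was -0.09 in either fit, with 19 or 18 of 20 lower. HFD-STZ16wk against HFD16wk had 0 of the 33 and 0% of all genes called by limma and 3 at an unadjusted p under 0.05 against 4.88%. Ebp (-0.12, exact permutation p = 0.00758) and the exporter Abcg1 (-0.26, exact permutation p = 0.0164) had the smallest p, both with an adjusted p of 0.987 by limma.

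At 24 weeks HFD-fed mice had lower means than controls for most enzymes, without a call. limma called 0 of the 33 genes in HFD24wk against SD24wk, where it called 0.121% of all genes, and 5 had an unadjusted p under 0.05 against 9.05%. Of the 20 enzymes 17 had a lower mean (median log2 difference -0.16, against 0.01), and 4 of 5 esterification and efflux genes had a higher mean (median 0.14). Srebf1 ran from 12.54 through a median of 12.92 to 13.45 in SD24wk and from 12.29 through 12.65 to 12.83 in HFD24wk. Its log2 difference was -0.32 (adjusted p = 0.438 by limma, exact permutation p = 0.0287). Dhcr7 ran from 10.55 through 10.90 to 11.11 and from 10.61 through 10.68 to 10.82, a log2 difference of -0.17 (exact permutation p = 0.0323). Acat2, which joins acetyl-CoA units, ran from 10.81 through 11.06 to 11.57 and from 10.80 through 10.89 to 11.01 (-0.19, exact permutation p = 0.0356, and -0.13 without SD24wk replicate 8). Sqle ran from 12.70 through 13.11 to 13.38 and from 12.53 through 12.84 to 13.10 (-0.24, exact permutation p = 0.0642). The groups overlapped in all 4 genes, and the adjusted p of the last 3 was 0.521 to 0.542 by limma. Beside these, 7 of 8 myelinating Schwann cell markers had a lower mean (median -0.11), all 6 macrophage markers a higher one (median 0.29) and 6 of 8 adipocyte markers a higher one (median 0.63). With the adipocyte or the myelinating Schwann cell score as a covariate, the median of the enzymes was -0.09 or -0.08, with 17 or 18 of 20 lower.

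HFD-STZ24wk was compared with the same SD24wk controls. limma called 0 of the 33 genes, against 0.0336% of all genes, with 1 at an unadjusted p under 0.05 against 5.99%. Of the enzymes 11 of 20 had a lower mean (median log2 difference -0.02), and 4 of 5 esterification and efflux genes a higher one (median 0.10). Lbr ran from 11.86 through 12.17 to 12.39 in SD24wk and from 11.74 through 11.99 to 12.11 in HFD-STZ24wk (log2 difference -0.17, adjusted p = 0.820 by limma, exact permutation p = 0.0384). Lss (-0.20, exact permutation p = 0.0904), Hmgcs1 (-0.17, exact permutation p = 0.122) and Idi1 (-0.17, exact permutation p = 0.217, and -0.10 without HFD-STZ24wk replicate 1) followed, each with an adjusted p of 0.832 by limma. Their values ran from 11.05 to 11.73 for Lss, 15.15 to 15.81 for Hmgcs1 and 12.58 to 13.30 for Idi1 in SD24wk. In HFD-STZ24wk they ran from 10.98 to 11.61, 15.01 to 15.47 and 12.30 to 13.18, so all groups overlapped. Without HFD-STZ24wk replicate 7 all 20 enzymes had a lower mean, with a median of -0.10, and none of the 33 had an unadjusted p under 0.05 (0 called by limma). Without replicate 1 of that group 7 of 20 were lower, with a median of 0.03, so the direction of the enzymes depended on single samples. With the adipocyte score as a covariate the median of the enzymes turned to 0.09, with 5 of 20 lower, and with the myelinating Schwann cell score to 0.04, with 8 of 20 lower.

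The 2 models were also compared at 24 weeks. In HFD-STZ24wk against HFD24wk, limma called 0 of the 33 genes and 0% of all genes, with 2 at an unadjusted p under 0.05 against 5.59%. Srebf1 was 12.86 ± 0.08 (SD, n = 8) in HFD-STZ24wk and 12.64 ± 0.17 (SD, n = 7) in HFD24wk, and all 8 HFD-STZ24wk samples lay above the HFD24wk median. The log2 difference was 0.22 (adjusted p = 0.785 by limma, exact permutation p = 0.00140). Lbr had a log2 difference of -0.18 (adjusted p = 0.785 by limma, exact permutation p = 0.0427).

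After dietary reversal in the HFD model, the enzymes lay near their HFD24wk level. limma called 0 of the 33 genes in HFD-DR24wk against HFD24wk, where it called 0.0108% of all genes, and 1 had an unadjusted p under 0.05 against 6.72%. Of the enzymes 11 of 20 had a higher mean after DR (median log2 difference 0.02, and from -0.01 to 0.05 when each sample was left out in turn). All 5 esterification and efflux genes had a lower mean (median -0.19), with 0 at an unadjusted p under 0.05. Mvk, the kinase of mevalonate, ran from 9.71 through 9.89 to 10.05 in HFD24wk and from 9.50 through 9.73 to 9.88 in HFD-DR24wk (log2 difference -0.20, adjusted p = 0.651 by limma, exact permutation p = 0.0146). Nr1h3 ran from 10.91 through 11.17 to 11.31 and from 10.68 through 10.94 to 11.27 (-0.19, exact permutation p = 0.0705). Abcg1 ran from 10.90 through 11.12 to 11.36 and from 10.50 through 10.86 to 11.35 (-0.22, exact permutation p = 0.0758). Soat1 ran from 10.25 through 10.49 to 10.83 and from 10.17 through 10.32 to 10.51 (-0.18, exact permutation p = 0.0752). The groups overlapped in all 4 genes, and the adjusted p of the last 3 was 0.743 to 0.774 by limma. All 6 macrophage markers had a lower mean after DR (median -0.53), as had 7 of 8 adipocyte markers (median -1.08), while all 8 skeletal muscle markers had a higher one (median 2.79). With the adipocyte score as a covariate the median of the enzymes was -0.05, with 14 of 20 lower, and 4 of 5 esterification and efflux genes were lower.

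In the HFD-STZ model, 16 of 20 enzymes had a higher mean after DR (median log2 difference 0.14, against 0.01 over all genes) and all 5 esterification and efflux genes a lower one (median -0.18). limma called 0 of the 33 genes in HFD-STZ-DR24wk against HFD-STZ24wk, where it called 0.0840% of all genes, and 4 had an unadjusted p under 0.05 against 6.48%. Nr1h3 ran from 10.98 through 11.12 to 11.37 in HFD-STZ24wk and from 10.77 through 10.93 to 11.04 in HFD-STZ-DR24wk (-0.23, adjusted p = 0.410 by limma, exact permutation p = 0.00766). Apoe ran from 15.84 through 15.99 to 17.00 and from 15.45 through 15.82 to 15.90 (-0.35, adjusted p = 0.757 by limma, exact permutation p = 0.0216). Abcg1 ran from 10.84 through 11.12 to 11.26 and from 10.78 through 10.91 to 11.03 (-0.18, adjusted p = 0.703 by limma, exact permutation p = 0.0343). Lss went the other way, from 10.98 through 11.17 to 11.61 and from 11.07 through 11.60 to 11.68 (0.28, adjusted p = 0.631 by limma, exact permutation p = 0.0356). The groups overlapped in all 4 genes. The highest Apoe value in HFD-STZ24wk was that of replicate 7, and without it the Apoe difference was -0.22 (log2). Beside these, all 8 adipocyte markers had a lower mean after DR (median -2.07, summed level with a median of 116882 before and 32577 after), as had all 6 macrophage markers (median -0.29), while all 8 myelinating Schwann cell markers had a higher one (median 0.15). With the adipocyte score as a covariate the direction turned, with 15 of 20 enzymes lower and a median of -0.29, and 3 of 5 esterification and efflux genes were lower. With the myelinating Schwann cell score the median of the enzymes was 0.05. Without a score, leaving out each sample in turn gave medians from 0.07 (without HFD-STZ24wk replicate 1) to 0.20 (without HFD-STZ-DR24wk replicate 4), with 0.19 without HFD-STZ24wk replicate 7 (2 of 20 lower).

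**Figure D4:**
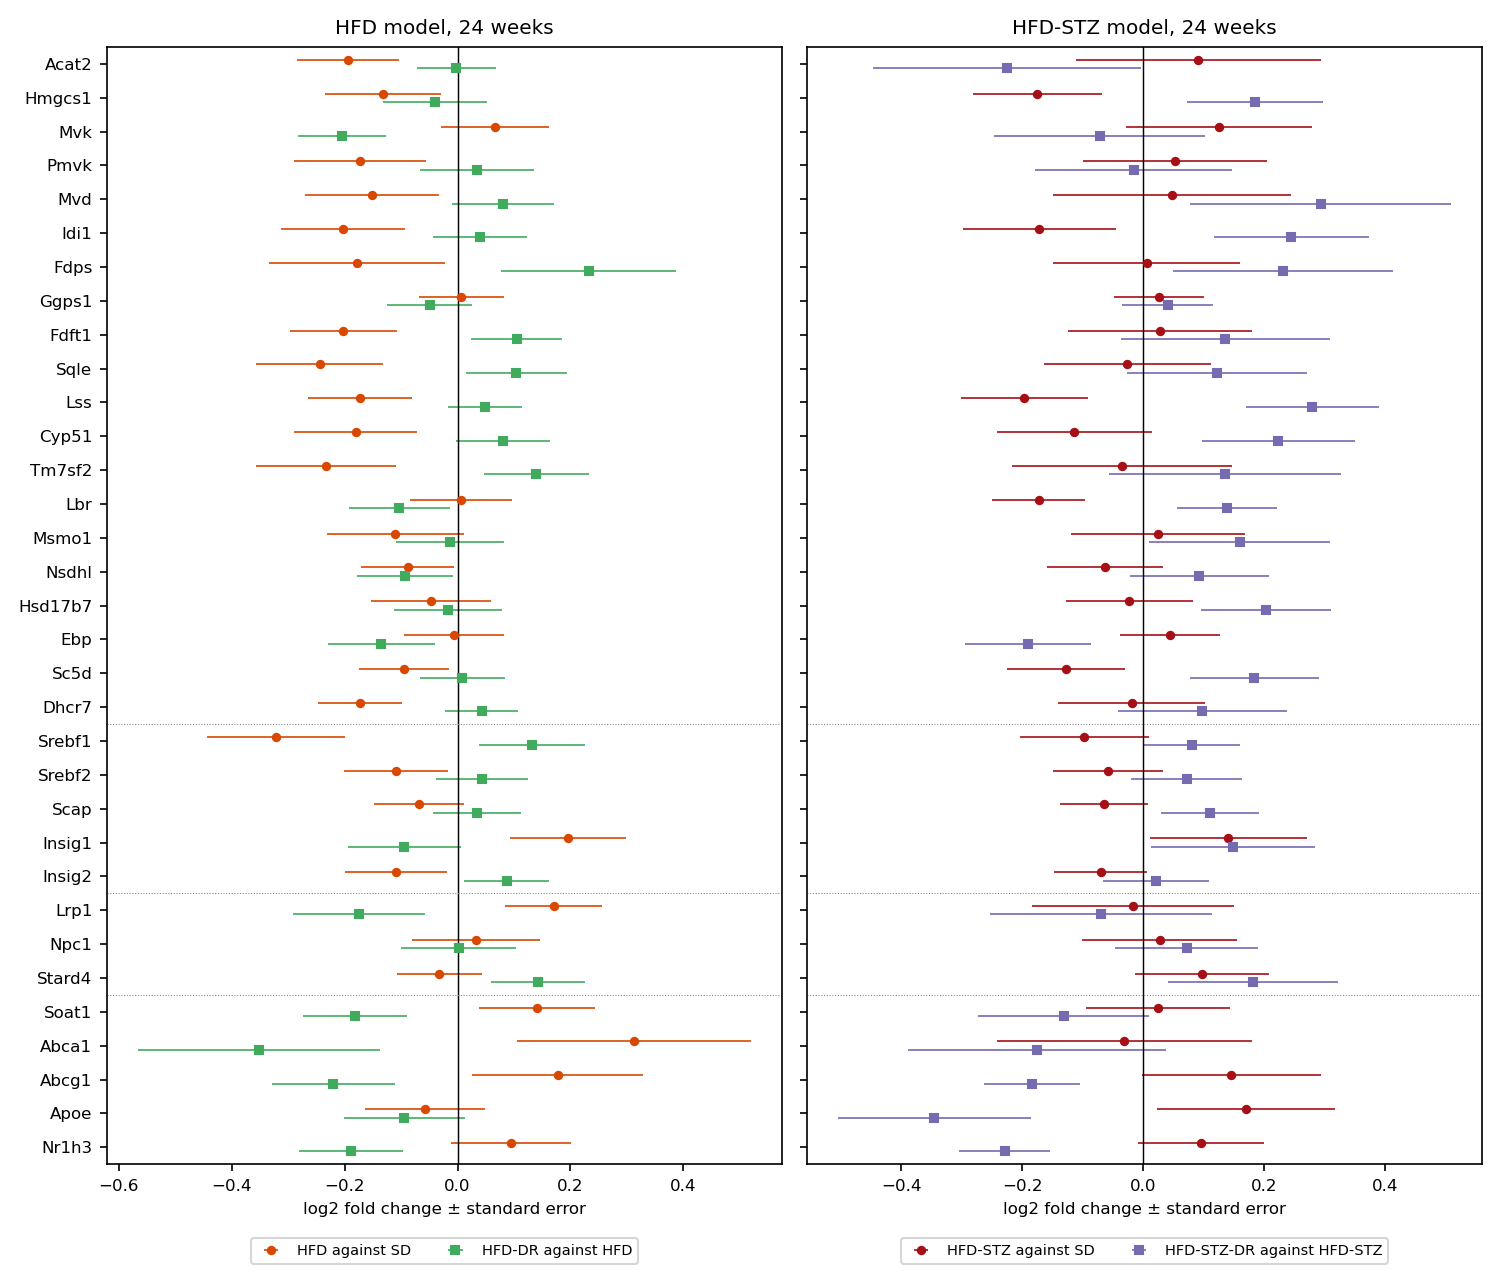
Log2 fold change of each of the 33 genes at 24 weeks for diet against SD and for DR against the same model without DR, with its standard error, in the HFD model (left) and the HFD-STZ model (right). Dotted lines part the role lists. After DR all 5 esterification and efflux genes lie left of 0 in both models, with medians of -0.19 and -0.18, and none passed the adjusted threshold.

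Against SD24wk, whose samples both comparisons share, the reversed groups differed in the sign of most enzymes. In HFD-DR24wk 19 of 20 enzymes had a lower mean than SD24wk (median log2 difference -0.12), and in HFD-STZ-DR24wk 17 of 20 had a higher one (median 0.08). The latter median moved between 0.03 (without SD24wk replicate 5, 7 of 20 lower) and 0.13 (without HFD-STZ-DR24wk replicate 4, 2 of 20 lower) when each sample was left out. limma called 0 of the 33 genes and 0% of all genes in both. In HFD-DR24wk 1 of the 33 had an unadjusted p under 0.05 against 5.14% of all genes, and in HFD-STZ-DR24wk 3 had against 9.16%. Nsdhl (-0.18, exact permutation p = 0.0581) and Ebp (-0.14, exact permutation p = 0.0516) had the smallest p in HFD-DR24wk, each with an adjusted p of 0.925 by limma. Stard4 (0.28, adjusted p = 0.422 by limma, exact permutation p = 0.0250) and Insig1 (0.29, adjusted p = 0.469 by limma, exact permutation p = 0.0370) had the smallest in HFD-STZ-DR24wk. All 6 HFD-STZ-DR24wk samples lay above the SD24wk median for Insig1, and 5 of 6 did for Stard4. All 8 adipocyte markers had a lower mean than SD24wk in both reversed groups (medians -0.44 and -1.48). With the adipocyte score as a covariate the median of the enzymes in HFD-STZ-DR24wk turned to -0.07, with 18 of 20 lower.

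The differences between effects were tested directly. No gene of the 33 had an HFD effect that differed between 16 and 24 weeks (0 by limma and 0% of all genes, 0 at an unadjusted p under 0.05 against 1.67%). The effect of DR did not pass as differing between the 2 models either (0 by limma and 0% of all genes, 0 at an unadjusted p under 0.05 against 1.71%), although the difference was above 0 for 15 of 20 enzymes, with a median of 0.14 (from 0.08 to 0.20, and above 0 for 13 to 19, when each sample was left out in turn). For the HFD-STZ effect by age, a test chosen after the comparisons had been seen, limma called 0 of the 33 and 0% of all genes, with 2 at an unadjusted p under 0.05 against 4.68%. These were Ebp (0.40 ± 0.12, log2, SE) and Nr1h3 (0.37 ± 0.14, log2, SE), both with an adjusted p of 0.756 by limma. The fall with age called in HFD mice was thus not shown to differ from the difference in SD mice, since the HFD effect by age is also the difference between these.

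The genes named for every comparison varied as follows. Sqle had its highest mean in SD16wk (13.58 ± 0.26, log2, SD, n = 5) and its lowest in HFD24wk (12.82 ± 0.21, log2, SD, n = 7), and its differences with age were -0.52, -0.53 and -0.37 (log2) in SD, HFD and HFD-STZ mice, with exact permutation p of 0.00311, 0.000583 and 0.0365. Srebf2, the main regulator of synthesis, ranged from 13.54 ± 0.18 (log2, SD, n = 5) in SD16wk to 13.28 ± 0.17 (log2, SD, n = 7) in HFD24wk. Its differences with age were -0.15, -0.22 and -0.12 (log2), with exact permutation p of 0.208, 0.0274 and 0.200. The regulator thus had the sign of the enzymes in each diet. Without SD16wk replicate 1 its SD difference weakened by over 1.5 times but kept its sign. Srebf1, better known for fatty acid synthesis, was highest in SD24wk (12.96 ± 0.30, log2, SD, n = 8) and lowest in HFD16wk (12.60 ± 0.14, log2, SD, n = 7), with differences with age of 0.34, 0.04 and 0.17 (log2) and exact permutation p of 0.0389, 0.678 and 0.0272. Insig1 was highest in HFD-STZ16wk (12.65 ± 0.25, log2, SD, n = 5) and lowest in SD24wk (12.14 ± 0.24, log2, SD, n = 8), with differences of -0.26, -0.07 and -0.37 (log2) and exact permutation p of 0.0971, 0.480 and 0.0435. The HFD difference of Srebf1 moved by over 1.5 times without single samples, such as HFD24wk replicate 5 or 6. That of Insig1 did so without replicate 1 or 4 of the same group, among others. Scap and Insig2 varied least of the regulators, with group means within 0.14 and 0.11 of each other on the log2 scale.

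Abca1 varied most of the efflux genes, from 11.02 ± 0.55 (log2, SD, n = 5) in SD16wk to 11.81 ± 0.50 (log2, SD, n = 7) in HFD24wk. Its group means spanned 0.78, and its SD within groups was 0.43 on average (log2). Its differences with age were 0.47, 0.27 and 0.07 (log2), with exact permutation p of 0.0956, 0.311 and 0.779. The first was 0.24 without SD16wk replicate 2, a sample rich in muscle markers, and the next 0.14 without HFD24wk replicate 6. The HFD-STZ difference turned negative without HFD-STZ24wk replicate 1 and grew by over 1.5 times without replicate 7 of that group. Abcg1 lay between 10.90 ± 0.27 (log2, SD, n = 7) in HFD-DR24wk and 11.23 ± 0.18 (log2, SD, n = 7) in HFD16wk. Its differences with age were -0.24, -0.10 and 0.12 (log2), with exact permutation p of 0.279, 0.255 and 0.172, and the first was -0.15 without SD16wk replicate 1. The HFD difference of Abcg1 weakened by over 1.5 times without HFD16wk replicate 7. None of these 6 differences passed. Apoe lay between 15.72 ± 0.13 (log2, SD, n = 7) in HFD16wk and 16.11 ± 0.38 (log2, SD, n = 8) in HFD-STZ24wk, with differences with age of 0.11, 0.17 and 0.38 (log2) and exact permutation p of 0.336, 0.0793 and 0.0241, and the last was 0.25 without HFD-STZ24wk replicate 7. The SD difference of Apoe weakened by over 1.5 times without SD24wk replicate 6. Nr1h3 lay between 10.92 ± 0.11 (log2, SD, n = 6) in HFD-STZ-DR24wk and 11.28 ± 0.10 (log2, SD, n = 5) in SD16wk. Soat1 lay between 10.24 ± 0.24 (log2, SD, n = 5) in SD16wk and 10.54 ± 0.20 (log2, SD, n = 7) in HFD16wk. Lrp1, which takes up lipoprotein remnants, lay between 13.58 ± 0.31 (log2, SD, n = 5) in SD16wk and 14.06 ± 0.14 (log2, SD, n = 7) in HFD24wk, and Npc1 group means lay within 0.15 of each other on the log2 scale. In SD16wk, where the enzymes were highest, Lrp1, Soat1 and Abca1 had their lowest group means.

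A further 34 cholesterol genes outside the 33 were looked at as a list. Across the 8 groups 3 of them differed, against 1.97% of all genes, among them the lysosomal lipase Lipa (adjusted p = 0.00621 by limma) and the lysosomal sterol carrier Npc2 (adjusted p = 0.0278 by limma). The order of their group means was not that of the synthesis enzymes. Lipa was lowest in HFD-DR24wk (12.30 ± 0.10, log2, SD, n = 7) and SD24wk (12.34 ± 0.12, log2, SD, n = 8), and highest in HFD16wk (12.63 ± 0.12, log2, SD, n = 7) and HFD24wk (12.61 ± 0.22, log2, SD, n = 7). Npc2 was lowest in HFD-DR24wk (13.15 ± 0.11, log2, SD, n = 7) and HFD-STZ-DR24wk (13.16 ± 0.17, log2, SD, n = 6), and highest in SD16wk (13.51 ± 0.17, log2, SD, n = 5). Over the 3 diets 5 of the 34 fell with age, against 3.29% of all genes, and 0 rose by limma (5 higher at an unadjusted p under 0.05). Among them Cyp7b1 fell by 0.33 (log2, adjusted p = 0.0102 by limma), Abca5 fell by 0.23 (log2, adjusted p = 0.0143 by limma) and Stard5 fell by 0.18 (log2, adjusted p = 0.0325 by limma). In none of the 13 comparisons of 2 groups did any of the 34 pass by limma (0, with 0 to 7 at an unadjusted p under 0.05).

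Within groups, the enzymes varied together. With group means removed, the 190 pairs of enzymes had a median r of 0.62 over the 53 samples, and 172 pairs were above 0. The highest was Idi1 with Cyp51 (0.95) and the lowest Tm7sf2 with Lbr (-0.37). These correlations describe samples that share libraries and tissue makeup, and no p is given. Against the mean of the enzymes (each enzyme leaving itself out), Sqle was closest (r = 0.94), and 19 of 20 enzymes were positive (median 0.80). The esterification and efflux genes split, with r of -0.72 for Abca1, -0.34 for Soat1, 0.21 for Apoe, 0.31 for Nr1h3 and 0.36 for Abcg1. Abca1 and Soat1 went together (r = 0.65), as did Abcg1 and Nr1h3 (r = 0.56), and Abca1 and Abcg1 went apart (r = -0.55). The uptake gene Lrp1 had an r of -0.52 with the mean of the enzymes. Outside the lists, the 6 genes most like the enzymes were Ndfip2, Snx7, Fez1, Rab2b, Ttc9 and Cfap36 (r from 0.874 to 0.860), and the 3 least like were Txnip, Atp2a3 and Prrx1 (r from -0.792 to -0.790).

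The makeup of the samples moved with the enzymes too. With group means removed, the mean of the enzymes had r of 0.68 (Spearman rho 0.67) with the mean of the myelinating Schwann cell markers over the 53 samples, and 0.59 without the 2 samples farthest from the median. It was positive in 8 of 8 groups. The value was -0.65 (rho -0.70) with adipocyte markers, -0.73 (rho -0.71) with endothelial markers and -0.57 (rho -0.57) with macrophage markers, and -0.67, -0.65 and -0.53 without the 2 farthest samples. The 4 endothelial markers were not alike, with r of 0.31 for Cldn5, the most abundant, and of -0.38 for Kdr, -0.70 for Cdh5 and -0.75 for Pecam1. Removing the runs of library numbers as well gave 0.63, -0.64, -0.73 and -0.58 in the same order of lists. For skeletal muscle (-0.07, rho -0.03) and red blood cell markers (-0.02, rho 0.03) it was near 0 over the 53 samples. Within single groups, however, r with the skeletal muscle markers ran from -0.90 to 0.93 and was positive in 4 of 8. Over the 53 samples r was 0.64 for markers of non-myelinating or immature Schwann cells, -0.37 for fibroblast and -0.35 for perineurial markers. These values were computed for 13 lists, as a description with no p. The regulators had r of 0.44 with the enzymes (rho 0.49), and the esterification and efflux genes -0.33 (rho -0.41), negative in 6 of 8 groups.

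**Figure D5:**
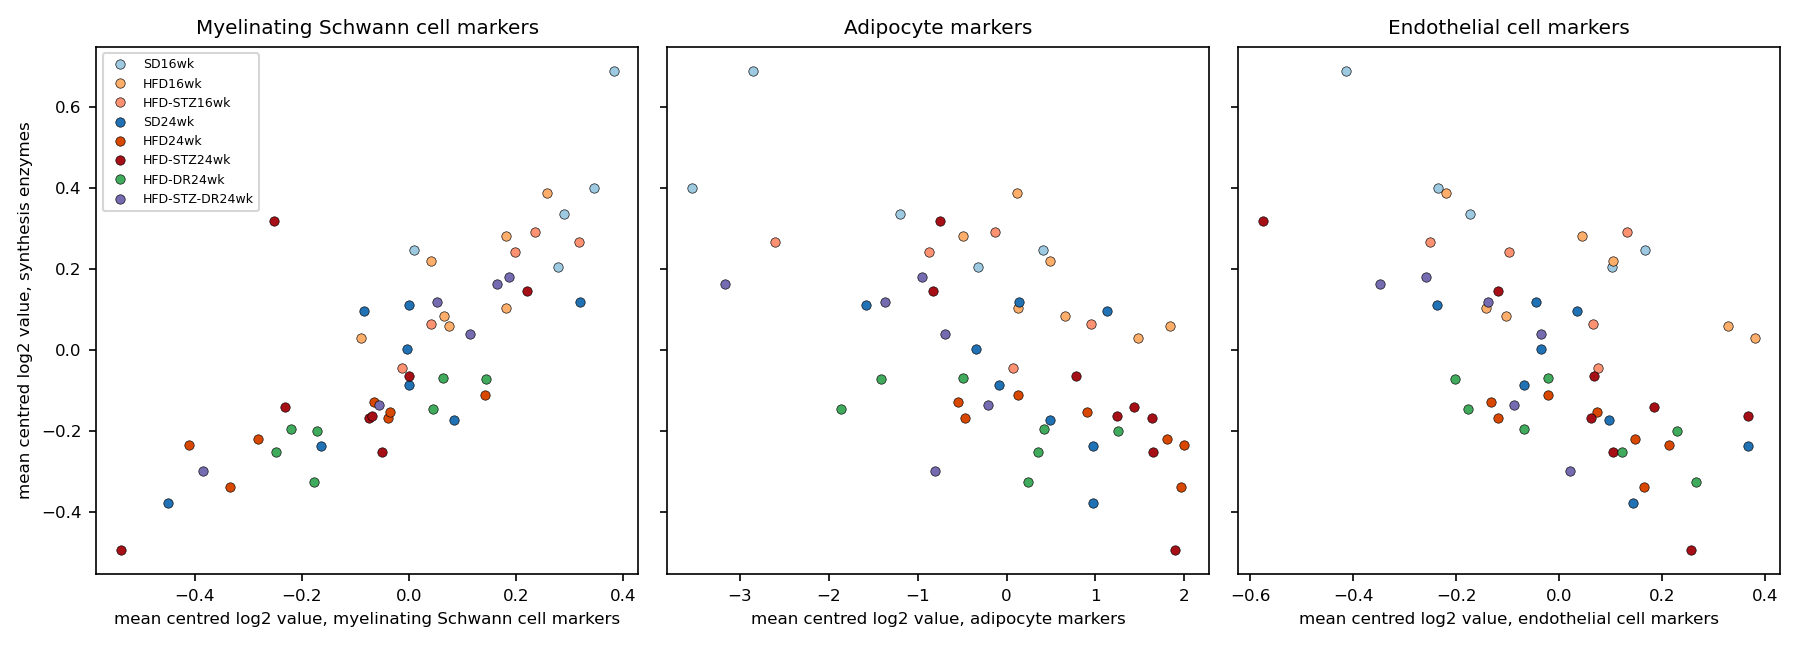
Mean centred log2 value of the 20 synthesis enzymes against that of myelinating Schwann cell, adipocyte and endothelial cell markers. Points are the 53 samples, coloured by group, and group means are not removed. Samples with more marker RNA of myelinating Schwann cells lie higher, and those with higher means of adipocyte or endothelial markers lie lower (r of 0.80, -0.60 and -0.58), though for Cldn5 alone r was 0.15.

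Some values may hold reads of other genes, since near-identical copies and overlapping genes exist. The published methods describe libraries without strand information, but the labels name another kit, so whether reads kept their strand is unknown. In GENCODE transcripts on GRCm38, 40.7% of the 75-base stretches of Acat2 also occurred in Acat3, 29.1% of those of Idi1 in 5 other genes, and 25.4% of those of Fdft1 in 2 others, chiefly Ctsb on the opposite strand, which overlaps 18.3% of its exon length. Fdps shares 26.7% of its exon length with Gm43738, Tm7sf2 12.1% with Vps51, and Hmgcs1 12.1% with an antisense transcript. Scap and Lbr share 10.2% and 10.7% of their stretches. The levels of these 8 genes are uncertain to that extent. For Mvd, Sc5d and Stard4 no shared stretch was found, and for Lss and Cyp51 the share was 1.82% and 2.39%.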

How the data were processed

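RNA from 53 SCN samples was sequenced. The labels and the published methods differ on the library kit. The authors aligned reads to mm10 with HISAT2, counted them with featureCounts and analysed them with DESeq2 (versions not given in the sources used here), and deposited log2 values whose normalization is not stated. The methods give 1 approximate number of reads for all samples, and the depth of each is not in the files. The 33 members, roles, markers and other lists were chosen with earlier results of these data known. Genes with a mean of at least 10 (linear) and no value above 22 (25 genes dropped) were fitted with limma 3.58.1 in R 4.3.3 (trend in the variance prior), and p-values were adjusted by Benjamini-Hochberg across every gene in the fit. limma replaces a count model because the files hold no counts. Single genes got 2-sided exact permutation tests (Python 3.11.15, numpy 2.4.6, pandas 2.3.3, scipy 1.17.1; plots in matplotlib 3.10.9). Steps were tested on simulated data.

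Named in full were each member past an adjusted p of 0.05, the 4 with the smallest p in the main comparisons at 24 weeks and 2 in each other comparison of 2 groups, 11 members always, other cholesterol genes with the smallest p across groups or past the threshold (not all of these are printed), and the 6 most and 3 least like genes outside the lists. Alternatives were the filter, the samples in a fit, the variance prior, centring, the 25 dropped genes, runs of library numbers, marker scores and each sample left out. Chosen after seeing the data were the average over 3 diets, the HFD-STZ effect by age, their alternatives, marker scores in the test of 8 groups, the fits without muscle-rich samples, likeness with runs removed, and single differences and differences between effects with each sample left out.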

Additional observations from a re-analysis of the deposited data

Results flagged for a closer look

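In 296 sets of group values (37 quantities in 8 groups), 14 held a lowest or highest sample far from the rest of its group. Chance gives about 1 in 20 sets, so 14 of 296 is near what chance gives.

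HFD-STZ24wk replicate 7 accounted for 5 of the 14. It had the lowest mean of the uptake and transport genes (centred log2 value -0.64, next -0.12) and the highest log2 values of Acat2 (12.58, next 11.11), Mvk (10.88, next 10.01), Ebp (11.004, next 10.60) and Apoe (17.00, next 16.23). HFD-STZ-DR24wk replicate 4, one of the samples rich in muscle markers, accounted for 4. It had the lowest mean of the regulators (centred log2 value -0.0938, next 0.05), the lowest log2 values of Lss (11.07, next 11.46) and Scap (12.19, next 12.55), and the highest of Insig2 (11.67, next 11.27).

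The remaining 5 were spread over 4 samples. SD24wk replicate 5, also rich in muscle markers, had the lowest Tm7sf2 value (8.88, next 9.44) and the highest Insig2 value (11.69, next 11.38). HFD-STZ16wk replicate 1 had the highest Fdps value (9.74, next 9.35), HFD-STZ24wk replicate 1 the lowest Msmo1 value (13.15, next 13.74) and HFD24wk replicate 5 the lowest Srebf1 value (12.29, next 12.62). The cause was not tested in any of these.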

How the results depend on the processing

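No member past the threshold turned direction under any alternative, but medians of the enzymes in comparisons without calls did with the adipocyte or myelinating Schwann cell score. Of the counts of members past the threshold and the values tallied with them, 431 lay near the reported value and 26 moved by over 1.5 times, all in comparisons of age or of the 8 groups. Outside this tally, medians of the enzymes moved by over 1.5 times in comparisons of diet and of DR as well, as given with each. Among single named genes, 1530 values kept their side of the threshold, 124 lost it and 7 gained it.

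For HFD24wk against HFD16wk (6 members), 2 passed with no filter, 1 in 1 fit of all 8 groups, 0 without a trend in the variance prior, 1 with each sample centred on its median, 12 with the adipocyte score, 0 with the myelinating Schwann cell score, 1 with the skeletal muscle score and 0 without the muscle-rich samples (limma, 15 to 19 at an unadjusted p under 0.05). The shares of all genes called in these fits are not given here, so the rise to 12 is not read as particular to the members. Leaving out each sample in turn gave 0 to 8. For SD24wk against SD16wk (0 members), 1 fit of all 8 groups gave 9, and 11 with the runs of library numbers. For HFD-STZ24wk against HFD-STZ16wk (0 members) these gave 2 and 6. Across the 8 groups (14 members), the myelinating Schwann cell score gave 4 and leaving out the muscle-rich samples 9. Over the 3 diets (15 members), the myelinating Schwann cell score gave 5. The cause was not tested.

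Leaving out each sample in turn gave 15 to 19 over the 3 diets, and 0 to 0 in each of the other 12 comparisons of 2 groups. Samples were not paired by replicate number, which only follows the order of the samples. The blocks that could be fitted were the runs of library numbers, given above. Of 320 differences of single genes between 2 groups, 203 moved by over 1.5 times and 57 changed sign when 1 sample was left out. The depth of each sample could not be read without counts.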
